A study of Mus musculus with 21 samples.

Results

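Slc23a1, Slc23a2, Slc2a1, Slc2a3, Slc2a8 and Gsto1 are 6 mouse genes that carry vitamin C or its oxidised form across membranes or return the oxidised form to vitamin C. They were taken as a set of 6 genes among the 18193 that the array's annotation names through a probe set of 1 gene, and all 14 of their probe sets were used. The mouse embryonic stem cell line CGR8 was sampled at day 0 as undifferentiated cells in 10% GMEM, and as embryoid bodies (cell aggregates that begin to form the germ layers) in 20% IMDM at days 2, 3 and 5. Embryoid bodies were grown without added ascorbic acid (the control groups) or with 100 µM ascorbic acid (the AA groups), as drops of 25 µL with 500 cells each, and on a shaker after day 2. No strain, deletion or transgene is named for any of the 7 groups, and each group has 3 arrays that the labels call biological replicates. The labels do not say how the replicate cultures were separated, so p-values measure the spread between these arrays. The submitters kept only samples in which ascorbic acid was found to increase cardiac differentiation, so the arrays are a selected set. One cell line was used, and the step from day 0 to day 2 changes the medium as well as the day.

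Ascorbate enters cells with sodium through the transporters encoded by Slc23a1 (SVCT1, best known from epithelia) and Slc23a2 (SVCT2, found in most tissues). Its oxidised form, dehydroascorbate, resembles glucose and enters through facilitative glucose transporters, among them GLUT1 (Slc2a1), the high-affinity GLUT3 (Slc2a3) and the largely intracellular GLUT8 (Slc2a8). Inside the cell it is reduced back to ascorbate by glutathione and by enzymes such as the omega-class glutathione transferase GSTO1, and ascorbate then serves as a cofactor of iron-dependent dioxygenases, including the enzymes that mark HIF transcription factors for degradation and those that oxidise methylated DNA.

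Signals are log2 values, so a difference of 1 is a 2-fold difference, and a level of one probe set is not compared with that of another. Probe sets for the absent TrpnX control transcript read 3.19 to 4.02, which gives the level of these probe sets without a target. The floor of another probe set can be higher, so a signal above 4.02 does not show that a gene is expressed. The erythroid marker Hba-x, for example, had a mean of 6.67 at day 0. Array medians lay between 6.05 and 6.19. Day 0 replicate 1 had the lowest mean correlation with the arrays of its group (0.9731, against 0.9805 to 0.9935 for the other 20 arrays), so the differences of named genes from day 0 are also given without it. All 7 listed markers of pluripotent cells were measured, and their summed signal was 13.588 to 14.628 at day 0. In whole embryoid bodies, a lower signal from fewer cells of a type and from less RNA per cell cannot be told apart.

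Slc23a1 (1421912_at) was highest at day 2 and lowest at day 5. Its arrays, in the order of replicates 1, 2 and 3, read 7.93, 7.27 and 6.28 at day 0, then 7.85, 7.54 and 8.31 in day 2 controls and 7.99, 7.86 and 8.06 with ascorbic acid. At day 3 they read 6.93, 7.37 and 7.37 in controls and 6.97, 6.92 and 7.60 with ascorbic acid, and at day 5 6.70, 6.53 and 5.93 against 6.28, 5.92 and 5.64. Of the 6 steps between neighbours in the order of its group means, 5 joined groups whose arrays overlapped. The exception was the gap between day 3 controls and day 2 controls. A second Slc23a1 probe set (1450404_at) read 3.21 to 3.87, at or under the highest TrpnX value on 21 of 21 arrays, so it was not above background.

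Slc23a2 (1417329_at) kept a level near 8 until day 3 and was lower at day 5. It read 8.26, 8.01 and 7.81 at day 0, 7.77, 8.10 and 7.72 in day 2 controls, and 7.71, 8.15 and 7.75 in day 2 AA arrays. Day 3 arrays read 7.64, 7.65 and 7.94 without and 7.90, 7.65 and 7.82 with ascorbic acid. At day 5 the controls read 6.80, 6.94 and 7.04 and the AA arrays 7.63, 7.37 and 7.16, so these groups did not overlap, and neither did day 5 AA and day 3 controls. The other Slc23a2 probe set (1417330_at) read 5.79 to 6.67 and did not follow the first (r = 0.05 across the 21 arrays, which share their groups).

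Slc2a1 (1434773_a_at), the GLUT1 gene, was low at days 2 and 3 and high at day 5. It read 13.39, 12.67 and 11.68 at day 0, a spread wider than in any other group. Day 2 controls read 11.85, 12.10 and 11.57, and day 2 AA arrays 11.03, 11.92 and 10.56. At day 3 the arrays read 11.61, 11.75 and 12.05 without and 11.88, 11.62 and 11.62 with ascorbic acid, and at day 5 12.91, 13.08 and 13.08 against 12.90, 13.00 and 13.16. All arrays of day 5 lay above all arrays of days 2 and 3, while day 0 spanned both ranges. The other Slc2a1 probe sets (1426599_a_at and 1426600_at) followed it with r of 0.99 to 1.00 over the 21 arrays.

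The 250 bases before the Slc2a1 start in RefSeq (GRCm38.p6, chr4:119108495-119108744, plus strand) are shown because Slc2a1 is a well known target of HIF factors and moved here with Slc2a3. The capitals mark the core letters of a HIF response element, ACGTG or GCGTG, searched on both strands:
Slc2a1: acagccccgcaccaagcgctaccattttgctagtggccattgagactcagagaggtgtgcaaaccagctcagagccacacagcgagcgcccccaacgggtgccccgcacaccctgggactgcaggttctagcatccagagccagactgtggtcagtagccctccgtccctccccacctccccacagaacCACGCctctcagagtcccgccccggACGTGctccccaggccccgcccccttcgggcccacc
Their first bases lie 61 and 36 bases before the start, the former on the minus strand. Either core form is common: 38.595% of the 32851 RefSeq windows of this length held at least 1. Slc2a8 and 1 of 2 windows of Slc23a2 also held 1 match and Gsto1 held 0. The table had entries for 4 of the 6 genes, without Slc2a3 and Slc23a1. A match is a description of letters and not a bound site.

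Slc2a3 (1437052_s_at), the GLUT3 gene, had the clearest time course of the 6. It read 13.65, 13.63 and 13.22 at day 0, 12.05, 11.93 and 11.26 in day 2 controls, and 11.65, 11.54 and 10.57 with ascorbic acid. Day 3 arrays read 12.19, 12.11 and 12.00 without and 12.24, 12.20 and 11.85 with ascorbic acid, and day 5 arrays 13.80, 13.71 and 13.37 against 13.74, 13.66 and 13.39. No array of days 2 and 3 reached the range of day 0 or day 5, and in the order of group means only day 3 controls and day 0 were neighbours without overlap. The other 3 Slc2a3 probe sets correlated with this one at r of 0.87 to 1.00.

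Slc2a8 (1450628_at), the GLUT8 gene, varied least, with group means from 8.22 to 8.78. Its arrays read 8.92, 8.90 and 8.53 at day 0, 8.55, 8.58 and 8.43 in day 2 controls, and 8.20, 8.29 and 8.17 in day 2 AA arrays, which lay below all day 2 controls. At day 3 they read 8.48, 8.56 and 8.23 without and 8.55, 8.52 and 8.18 with ascorbic acid, and at day 5 8.69, 8.49 and 8.75 against 8.54, 8.53 and 8.58. All 6 neighbouring pairs of groups in its order overlapped.

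Gsto1 (1456036_x_at) split the day 0 arrays, with 10.18 in replicate 1 against 8.52 and 8.56 in the others. Day 2 arrays read 10.12, 10.16 and 9.26 without and 9.94, 9.63 and 9.10 with ascorbic acid, and day 3 arrays 9.56, 10.00 and 10.08 against 9.88, 10.12 and 10.22. At day 5 the range narrowed to 8.95, 9.24 and 9.20 in controls and 9.15, 9.05 and 9.08 with ascorbic acid, below every day 3 array. The second Gsto1 probe set (1416531_at) followed it with r = 0.95.

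**Figure D1:**
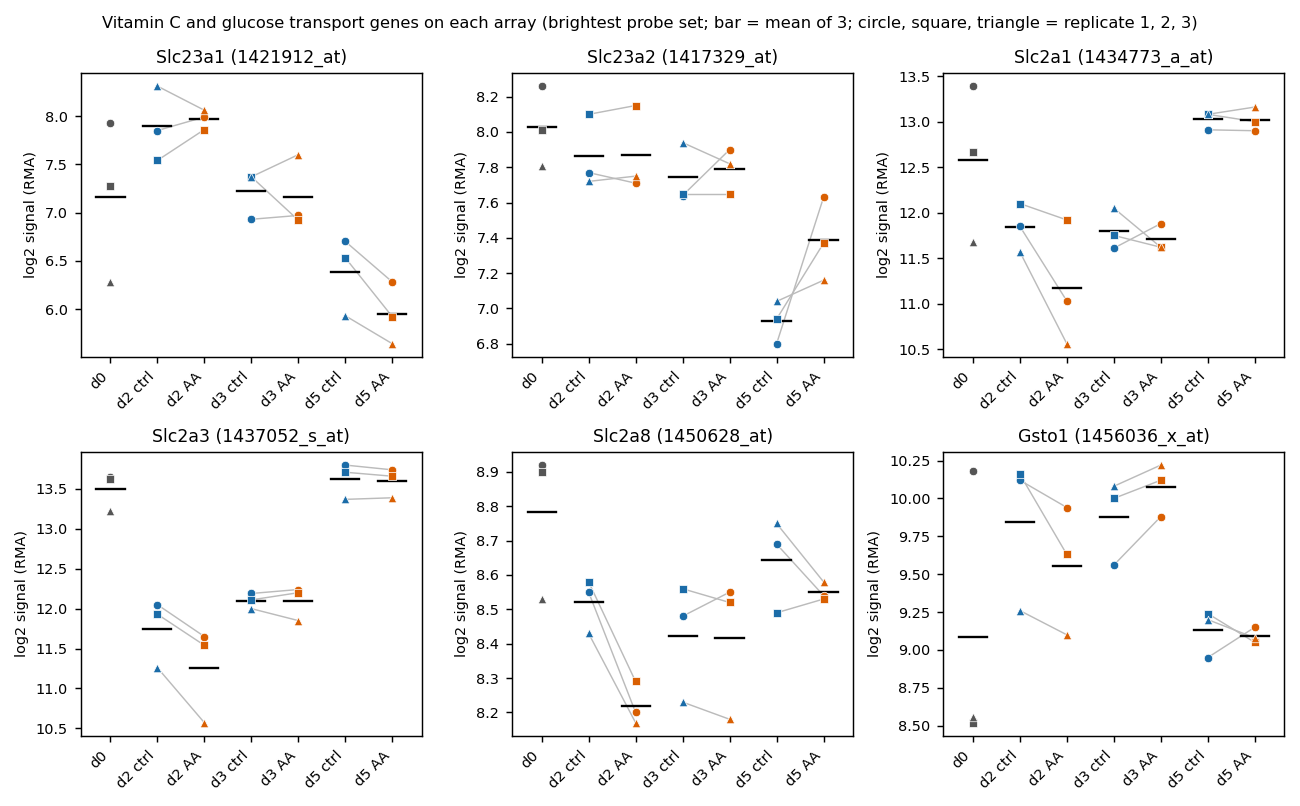
Log2 signal of the brightest probe set of each of the 6 genes on each of the 21 arrays (y axis, RMA scale, different range in each panel) by group (x axis: day and treatment); symbols give the replicate, black bars the mean of 3, and grey lines join control and AA arrays of the same day and number. Slc2a1 and Slc2a3 are low at days 2 and 3 and high at day 5, while Slc23a1 and Slc23a2 have their lowest values at day 5.

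The main question of the design is what ascorbic acid changed at each day. At day 2, the brightest probe sets of Slc2a1 and Slc2a3 were lower with ascorbic acid in every pair of arrays with the same number, and no member probe set was called higher. On 1434773_a_at, Slc2a1 differed by -0.82, -0.18 and -1.01 in pairs 1, 2 and 3, a mean of -0.67 (1.59-fold lower). On 1437052_s_at, Slc2a3 differed by -0.40, -0.39 and -0.69, a mean of -0.49 (1.41-fold lower). The arrays of the groups overlapped for both genes, through AA replicate 2 for Slc2a1 and the low control replicate 3 for Slc2a3, and every pair kept its direction.

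How firmly these differences stand depends on the fit. The fit with pairs also leaves out the day 0 arrays, where Slc2a1 1434773_a_at had its widest spread (SD 0.86). The parts of pairing and of leaving out these arrays were not told apart. In limma's fit of all 21 arrays without pairs, 0 of the 14 member probe sets were called at day 2 (Benjamini-Hochberg adjusted p under 0.05 over all probe sets), although 5 had an unadjusted p under 0.05, and 0.00444% of all probe sets were called. The adjusted p was 0.703 for Slc2a1 1434773_a_at and 0.702 for Slc2a3 1437052_s_at. Same-numbered arrays of a day deviated together, so the limma fit with the 9 pairs as a block is given beside it. The correlation of their deviations was weakest at day 2, with r of 0.16, 0.18 and 0.23 in pairs 1, 2 and 3. There 5 of the 14 were called, all lower, and 8 had an unadjusted p under 0.05, where 0.309% of all probe sets were called lower and 1.64% in either direction. They were the 3 probe sets of Slc2a1 (-0.67 ± 0.13, -0.78 ± 0.13 and -0.71 ± 0.13, SE, adjusted p 0.0128, 0.00576 and 0.0128) and 2 of the 4 of Slc2a3 (-0.49 ± 0.07 and -0.50 ± 0.09, adjusted p 0.00169 and 0.00625). The remaining Slc2a3 probe sets gave 0.01 and -0.37 (adjusted p 0.983 and 0.149), so the probe sets of this gene disagreed, and 1421924_at differed by 0.04, -0.17 and 0.16 in the 3 pairs. Without pair 1 of day 2, the 3 Slc2a1 probe sets and Slc2a3 1455898_x_at missed the threshold (adjusted p 0.156, 0.0898, 0.145 and 0.0757) at -0.60, -0.73, -0.65 and -0.50, while Slc2a3 1437052_s_at stayed called (0.0167). The SE given above comes from the pairs of all 3 days with limma's moderation, and is not the spread of the day 2 pairs alone. All 5 calls were lost when the 6 day 2 arrays were fitted alone. The median difference over the 14 probe sets was -0.30, against -0.02 over all probe sets tested. Of the 14, Slc2a1 has 3 and Slc2a3 has 4, and probe sets of 1 gene are not independent. Counted on brightest probe sets, 2 of the 6 genes were called with pairs.

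The other 4 genes gave no call at day 2 in either limma fit. Slc2a8 was -0.30 (95% interval in the paired fit -0.50 to -0.10, adjusted p 0.135), lower in 3 of 3 pairs. Gsto1 was -0.29 (-0.51 to -0.07, adjusted p 0.179) on 1456036_x_at and -0.02 on 1416531_at. For the sodium-dependent transporters the intervals were centred near 0, from -0.23 to 0.37 for Slc23a1 and from -0.26 to 0.28 for Slc23a2 on their brightest probe sets.

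Other measures moved with treatment at day 2. The difference between the 3' and 5' Actb control probe sets, a sign of RNA integrity or labelling, was 1.22, 1.40 and 0.94 in controls and 0.91, 1.08 and 0.91 with ascorbic acid. The summed signal of the 5 fibroblast and mesenchyme markers was 10.279 to 10.518 in controls and 9.592 to 10.235 with ascorbic acid. Vim, with means of 10.04 and 9.40, made up most of it, while Col1a1, Col3a1, Pdgfra and Thy1 had means of 5.00 to 7.10. None of the 5 was at or under the highest TrpnX value, which does not show that they were expressed. In the paired fit 1 of those 5 was called lower, as was 1 of 7 pluripotency, 1 of 7 trophoblast and 1 of 5 primitive streak markers. Of all probe sets, 0.309% were called lower in this fit. The unpaired fit called 0 markers in each of these lists. The part of these measures in the result was not tested.

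At day 3 none of the 14 probe sets was called in either limma fit, and 0 had an unadjusted p under 0.05. The background was 0.00222% called without and 0.0910% with pairs. The paired 95% interval was -0.36 to 0.17 for Slc2a1 1434773_a_at and -0.15 to 0.14 for Slc2a3 1437052_s_at.

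At day 5 none was called either, with 1 unadjusted p under 0.05 without pairs and 3 with pairs, where 0.0688% and 0.615% of all probe sets were called. The ascorbate transporters had the widest differences, in opposite directions. Slc23a2 1417329_at was 0.83, 0.43 and 0.12 higher with ascorbic acid in pairs 1, 2 and 3, a mean of 0.46 (1.38-fold) with a paired 95% interval of 0.19 to 0.73 and an adjusted p of 0.183. Its second probe set gave 0.18 (-0.16 to 0.52). Slc23a1 1421912_at differed by -0.42, -0.61 and -0.29, a mean of -0.44 (-0.74 to -0.14, adjusted p 0.300). Both kept their sign in 3 of 3 pairs and neither passed the threshold. The summed signal of the 5 erythroid markers also differed at day 5, with 9.313 to 11.561 in controls and 11.317 to 13.588 with ascorbic acid, and 5 of the 5 were called higher in the paired fit and 1 of 5 in the unpaired fit. Their part in these differences was not tested.

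Averaged over the 3 days, 0 of 14 were called without pairs (background 0.0155%, 0 with an unadjusted p under 0.05) and 1 with pairs (background 1.06% in either direction and 0.260% lower, 8 of 14 with an unadjusted p under 0.05). It was Slc2a3 1437052_s_at at -0.18 ± 0.04 (adjusted p 0.0457), a call lost in 10 of its 14 alternatives, among them leaving out any pair other than pair 2 of day 2. A limma F test asked whether the effect differed between the days. Without pairs it called 0 of 14 (background 0.00666%, 0 with an unadjusted p under 0.05). With pairs it again called 1, Slc2a3 1437052_s_at (adjusted p 0.0452, background 0.375%, 8 of 14 with an unadjusted p under 0.05), and that call was also lost in 10 of 14 alternatives, 8 of them leaving out 1 pair. For Slc2a1 1434773_a_at the adjusted p of this test was 0.204, so its effect was not shown to differ between days.

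**Figure D2:**
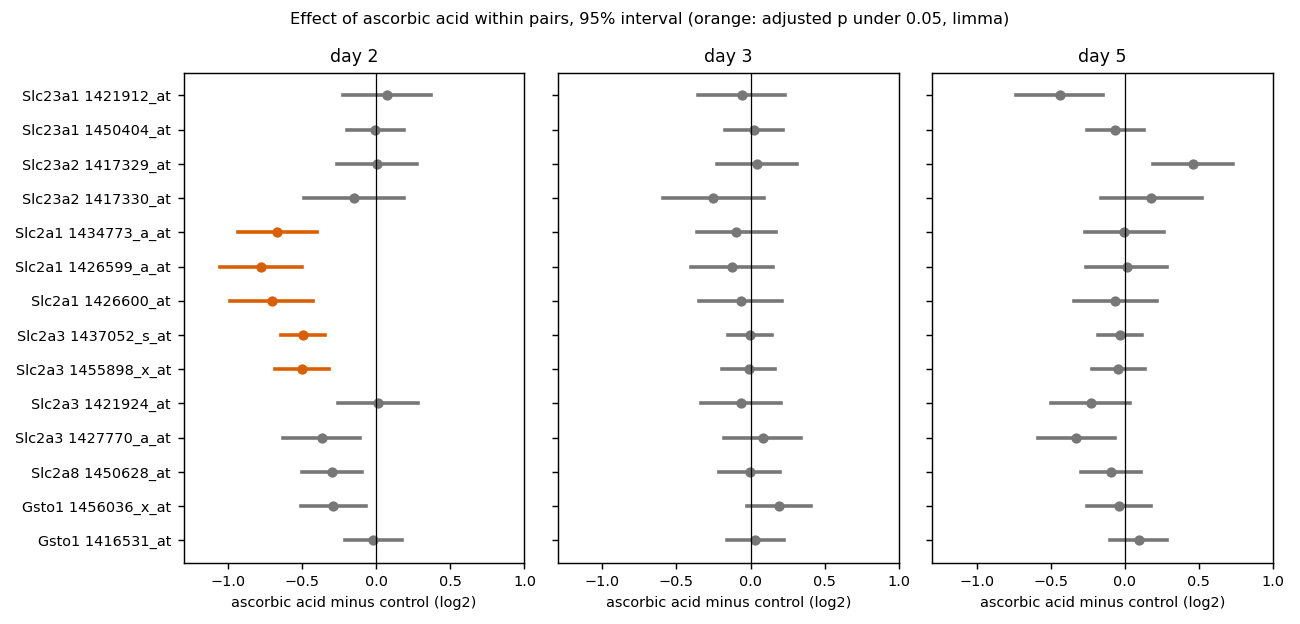
Difference between AA and control arrays within pairs (x axis, log2) at days 2, 3 and 5 for the 14 probe sets (y axis), with the 95% interval from the paired limma fit (points: mean of 3 pairs; orange: adjusted p under 0.05). The 5 called probe sets, all of Slc2a1 and Slc2a3, lie between -0.78 and -0.49 at day 2, and none is called at day 3 or 5.

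The steps between days, which share arrays with the comparisons above, gave larger differences. From day 0 to day 2, the 4 Slc2a3 probe sets fell in controls, by 1.75 ± 0.23 (3.37-fold, adjusted p 9.41e-05), 1.95, 1.38 and 1.46 on the log2 scale. These 4 of 14 stand against 8.52% of all probe sets called in either direction and 5.08% of all called lower. They belong to 1 of the 6 genes and are not independent of each other. The calls held without day 0 replicate 1 (-1.68, -1.89, -1.54 and -1.64), and 1421924_at and 1427770_a_at missed the threshold when only the 6 arrays compared were fitted (adjusted p 0.0548 and 0.0636). The Slc2a1 differences had the same sign but were not called, at -0.74, -0.77 and -0.96 on its 3 probe sets (adjusted p 0.162, 0.158 and 0.0575). That value hung on the scattered day 0 arrays, since on 1434773_a_at it was -0.34 without replicate 1 (adjusted p 0.485) and -1.19 without replicate 3 (adjusted p 0.0124). The other 2 probe sets gave -0.35 and -0.56 without replicate 1.

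Slc23a1 1421912_at and Gsto1 1456036_x_at were not called in this step with all arrays, at 0.74 (adjusted p 0.163) and 0.76 (adjusted p 0.171). Without day 0 replicate 1 both were called higher in day 2 controls, Slc23a1 by 1.13 (adjusted p 0.0109) and Gsto1 1456036_x_at by 1.31 (adjusted p 0.000618). The Slc23a1 value depends on which array is left out. Its day 0 arrays read 7.93, 7.27 and 6.28, so leaving out replicate 3 makes the difference smaller than with all arrays. Slc23a2 differed by -0.16 (95% interval -0.50 to 0.17), and by -0.05 without day 0 replicate 1. The second Gsto1 probe set (1416531_at) changed less, from a mean of 8.73 at day 0 to 9.13 in day 2 controls, and was not called with all arrays. Over the same step 5 of 7 pluripotency and 1 of 5 mesenchyme markers were called lower, where 5.08% of all probe sets were. Called higher were 2 of 11 extraembryonic endoderm and 1 of 7 trophoblast markers, where 3.44% of all probe sets were. Of the erythroid and the primitive streak markers, 0 of 5 each were called. No marker of these lists was at or under the highest TrpnX value. The part of the markers in the result was not tested.

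From the same day 0 arrays to day 2 with ascorbic acid, 8 of 14 probe sets fell, belonging to 3 of the 6 genes. Of all probe sets, 9.73% were called and 4.42% were called lower. All 3 of Slc2a1 fell, by 1.41 ± 0.31, 1.55 and 1.67 (adjusted p 0.00554, 0.00363 and 0.00147), and all 4 of Slc2a3, by 2.25 ± 0.23, 2.45, 1.37 and 1.83. Slc2a8 fell by 0.56 ± 0.13 (adjusted p 0.00895), a call lost without day 0 replicate 2 (-0.51, adjusted p 0.0523). Without day 0 replicate 1, Slc2a1 was -1.01, -1.13 and -1.27, Slc2a3 -2.17, -2.39, -1.53 and -2.01 and Slc2a8 -0.50 (adjusted p 0.0232), all still called, while Slc23a1 (1.20, adjusted p 0.00710) and Gsto1 1456036_x_at (1.02, adjusted p 0.00531) were called higher as they were in controls. For Slc23a1, leaving out day 0 replicate 3 instead makes the difference smaller than with all arrays. Fitted on its 6 arrays alone, this step left Slc2a1 and Slc2a8 uncalled. The 2 steps share the day 0 arrays, and the difference between them is the day 2 comparison given above.

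Between days 2 and 3 few probe sets of the 6 genes were called. In controls 0 of 14 probe sets were called (2 with an unadjusted p under 0.05, background 3.35%), with limma intervals of -0.68 to 0.61 for Slc2a1 and -0.12 to 0.83 for Slc2a3. Slc23a1 1421912_at differed by -0.68 (-1.32 to -0.03, adjusted p 0.270) in controls and -0.81 (-1.45 to -0.16, adjusted p 0.202) with ascorbic acid, with no overlap between arrays in either arm and no call. With ascorbic acid 1 of 14 was called (4 with an unadjusted p under 0.05, background 2.94%, higher 1.99%), Slc2a3 1437052_s_at at 0.84 ± 0.23 (adjusted p 0.0488). That call was lost in 16 of 28 alternatives, 14 of them leaving out 1 array, including day 2 AA replicate 3 (0.50, adjusted p 0.301).

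From day 3 to day 5 both glucose transporters rose on all of their probe sets in both arms. In controls 8 of 14 probe sets, belonging to 3 of the 6 genes, were called, 7 higher and 1 lower. Of all probe sets, 13.2% were called, 6.76% higher and 6.45% lower. Slc2a1 rose by 1.22 ± 0.31, 1.35 and 1.62 (2.33-fold to 3.08-fold, adjusted p 0.0103, 0.00629 and 0.000915). Slc2a3 rose by 1.53 ± 0.23, 1.69, 1.61 and 1.87 (2.88-fold to 3.66-fold). Slc23a2 fell by 0.82 ± 0.16 (1.76-fold, adjusted p 0.00133) on 1417329_at, while 1417330_at gave -0.17 (adjusted p 0.649).

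With ascorbic acid 7 probe sets rose and 1 fell over the same days, belonging to 3 of the 6 genes. Of all probe sets, 13.0% were called, 6.73% higher and 6.30% lower. Slc2a1 rose by 1.31 ± 0.31, 1.49 and 1.63, and the 4 probe sets of Slc2a3 by 1.44 to 1.66. The 1 lower was Slc23a1, by 1.22 ± 0.31 (2.32-fold, adjusted p 0.0109), which missed the threshold without day 3 AA replicate 3 (adjusted p 0.0820) or day 5 AA replicate 3 (adjusted p 0.0541). In controls Slc23a1 was -0.84 (adjusted p 0.0866), and it was called when only the 6 arrays compared were fitted or when day 0 replicate 1 or 3 was left out. Slc23a2 with ascorbic acid was -0.40 (adjusted p 0.116). Whether the decline of either transporter from day 3 to day 5 differs between the arms was not tested on its own. The paired F test over all 3 days gave adjusted p 0.539 for Slc23a1 and 0.510 for Slc23a2.

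Gsto1 1456036_x_at was -0.75 in controls (adjusted p 0.153) and -0.98 with ascorbic acid (adjusted p 0.0513), and 9 of 28 alternatives brought the latter under the threshold. On 1416531_at the Gsto1 mean went from 9.38 to 8.67 in controls and from 9.41 to 8.76 with ascorbic acid, without a call. Slc2a8 differed by 0.22 (-0.06 to 0.50) in controls and 0.13 (-0.14 to 0.41) with ascorbic acid. Cell type markers changed strongly in this step. In controls the summed signal of 7 trophoblast markers went from 10.917 to 11.506 at day 3 to 14.247 to 14.385 at day 5, that of 5 mesenchyme markers from 10.075 to 10.515 to 12.89 to 13.221, and that of 7 pluripotency markers from 12.908 to 13.161 to 9.572 to 9.867. Called higher were 5 of 7 trophoblast, 4 of 5 mesenchyme, 6 of 11 extraembryonic endoderm and 1 of 5 erythroid markers, where 6.76% of all probe sets were. Called lower were 4 of 7 pluripotency and 4 of 5 primitive streak markers, where 6.45% of all probe sets were. The pluripotency marker Klf4 was called higher (1.68), and the mesenchyme marker Thy1 went from 6.85 to 6.23 without a call. With ascorbic acid 5 of 7 trophoblast, 3 of 5 mesenchyme, 6 of 11 extraembryonic endoderm, 5 of 5 erythroid and 1 of 7 pluripotency markers were called higher (6.73% of all probe sets). Called lower were 4 of 7 pluripotency, 3 of 5 primitive streak and 1 of 5 mesenchyme markers, Thy1 (7.07 to 5.84), where 6.30% of all probe sets were. No marker of these lists was at or under the highest TrpnX value. Their part in the changes of the 6 genes was not tested.

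**Figure D3:**
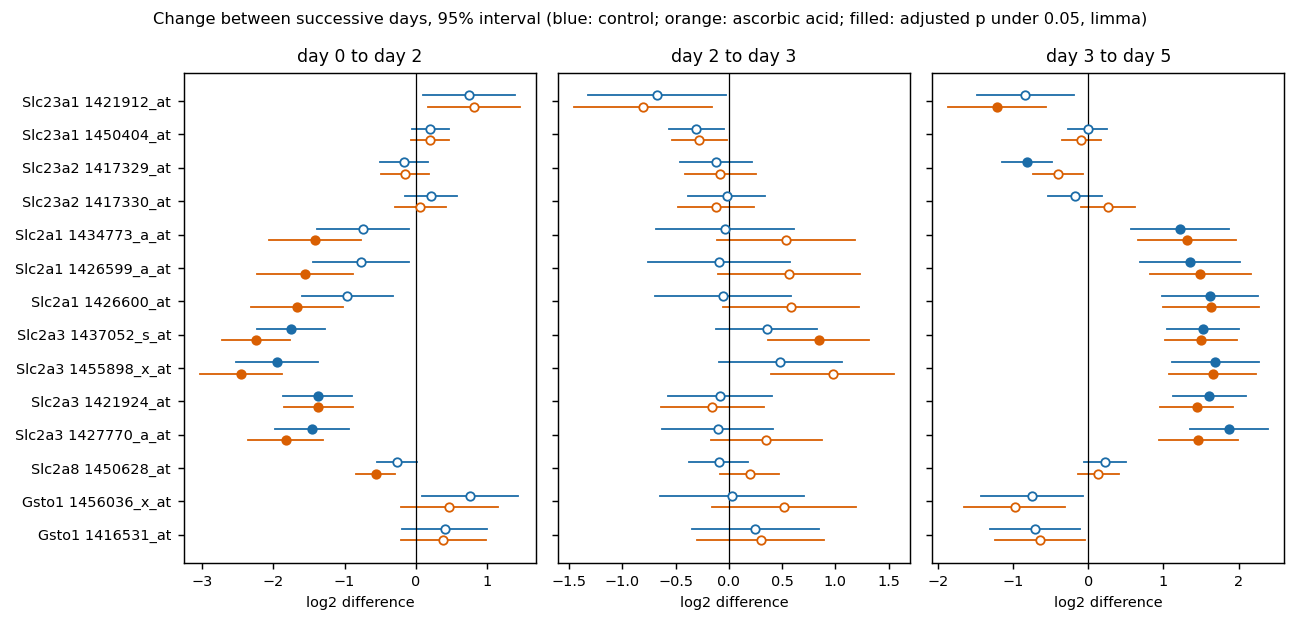
Log2 difference between successive days (x axis, later minus earlier, with the 95% interval of the unpaired limma fit) for the 14 probe sets (y axis), in controls (blue) and with ascorbic acid (orange); filled points have an adjusted p under 0.05. Slc2a3 falls from day 0 to day 2 and rises from day 3 to day 5 in both arms, and Slc2a1 rises from day 3 to day 5 in both.

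The genes most like each member across the 21 arrays were found among 11861 genes with a mean of at least 6, for the 4 members whose group means span at least 1. The correlations share arrays, groups and days and are given as a description. Slc23a1 was closest to Pdpn, the podoplanin gene (r = 0.93), Usp53 (0.93) and Grhl2, an epithelial transcription factor gene (0.92). Slc23a2 was closest to H2-Bl (0.92), the cholesterol exporter gene Abcg1 (0.91) and Pacsin1 (0.90). For Slc2a1 they were Pnrc1 (0.91), Exoc4 (0.88) and Prkaa2, which encodes a catalytic subunit of AMP-activated kinase (0.88). For Slc2a3 they were Agpat4 (0.93), Kidins220 (0.93) and Snx30 (0.93). Slc2a1 and Slc2a3 correlated with each other at r = 0.89 on their brightest probe sets, and Slc23a1 ran against Slc2a3 at r = -0.73.

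Of 12 other listed glucose transporter genes, 11 were measured. In the 3 control steps limma called 0 of 11, with 1 of 11 at an unadjusted p under 0.05 in each, where 8.52%, 3.35% and 13.2% of all probe sets were called. Slc2a2, the liver and beta-cell transporter GLUT2, had group means of 3.92 to 4.08, within the TrpnX range or just above it. Slc2a4, the insulin-responsive GLUT4, had group means of 6.97 to 7.15. From day 3 to day 5 with ascorbic acid, Slc2a13 was called higher (0.39, adjusted p 0.0267) with means of 3.75 and 4.15, near background, a call lost in 5 of 27 alternatives. That is 1 of 11, where 6.73% of all probe sets were called higher. Slc50a1, a sugar efflux transporter of the SWEET family, was the one gene of this list called for ascorbic acid. At day 5 it read 6.51, 6.73 and 7.02 in controls and 7.63, 7.53 and 7.31 with ascorbic acid, with no overlap, a rise of 0.74 ± 0.14 (1.67-fold, adjusted p 0.0204 with pairs and uncalled without). This was 1 of 11 with pairs, where 0.493% of all probe sets were called higher at day 5. The call was lost without pair 1 (0.55, adjusted p 0.338) or pair 2 of day 5 (0.71, adjusted p 0.165). Slc50a1 was also higher in 3 of 3 pairs at day 2 (0.25, 0.13 and 0.31) and at day 3 (0.16, 0.60 and 0.11), without a call. Averaged over days the paired fit called 1 of 11 genes of this list higher, where 0.804% of all probe sets were, and the unpaired fit called 0. Slc23a3 and Slc23a4, the other genes of the ascorbate transporter family, had group means of 5.15 to 5.40 and 5.81 to 6.17. Slc23a4 was called higher in day 2 controls than at day 0 (0.34, adjusted p 0.0411), 1 of 2 genes where 3.44% of all probe sets were. The call was lost in 8 of 28 alternatives but not without day 0 replicate 1 (0.36, adjusted p 0.0407).

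All 15 listed genes that reduce dehydroascorbate or the ascorbyl radical, or supply the electrons, were measured. From day 0 to day 2 controls 4 rose and 0 fell, where 3.44% of all probe sets were called higher (list median 0.10 against 0.04 over all). Cyb5a, cytochrome b5, rose by 0.70 ± 0.15 (adjusted p 0.00610), and Glrx2, Txnrd1 and Txn2 rose by 0.60, 0.55 and 0.34. The Cyb5a call was lost in 1 of 28 alternatives (only the 6 arrays compared), those of Glrx2 and Txn2 in 6 and 7, and that of Txnrd1 in 20. Without day 0 replicate 1 the differences were 0.86 for Cyb5a, 0.81 for Glrx2, 0.68 for Txnrd1 and 0.31 for Txn2, the last not called (adjusted p 0.0586). From day 2 to day 3 limma called 0 of 15 in either arm, with 3 of 15 at an unadjusted p under 0.05 in each. From day 3 to day 5 in controls 7 fell and 1 rose, Akr1c13 near background, where 6.45% of all probe sets were called lower and 6.76% higher (list median -0.08 against -0.02 over all). Glrx, a glutaredoxin with dehydroascorbate reductase activity, fell by 1.56 ± 0.28 (2.95-fold, adjusted p 0.00054), Cyb5a by 1.14, the ascorbate-dependent electron carrier Cyb561 by 0.95, and the glutathione reductase gene Gsr by 0.80 ± 0.12 (adjusted p 8.57e-05). Gsto2, the second omega-class transferase, had group means of 3.67 to 3.78, not above the TrpnX range.

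Gsr was also the one gene of this list called for ascorbic acid at day 2 (with pairs, 1.33% of all probe sets called higher). It read 8.85, 8.92 and 8.87 in controls and 9.39, 9.22 and 9.58 with ascorbic acid, so the groups did not overlap. The rise was 0.52 ± 0.11 (1.43-fold, adjusted p 0.0293 with pairs and uncalled without), and the call was lost without pair 1 (0.51, adjusted p 0.188) or pair 3 of day 2 (0.42, adjusted p 0.0702). Averaged over days the paired fit called Gsr (0.30 ± 0.07, adjusted p 0.0365) and Txnrd1 (0.21 ± 0.05, adjusted p 0.0440) higher, calls lost in 8 and 10 of 14 alternatives. Of all probe sets, 0.804% were called higher in that fit.

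Of 7 genes on the route from glucose to ascorbate, 2 rose with ascorbic acid at day 2 in the paired fit (1.33% of all probe sets did) and 0 fell. Without pairs limma called 0, with 3 of 7 at an unadjusted p under 0.05. Ugdh, which makes UDP-glucuronate for both this route and the glycosaminoglycans, read 8.96, 8.61 and 9.28 in controls and 9.76, 9.53 and 9.94 with ascorbic acid. All 3 AA arrays lay above all controls. The rise was 0.79 ± 0.09 (1.73-fold, adjusted p 0.00039), and the call held in 15 of 15 alternatives to the paired fit, with adjusted p from 0.000203 to 0.0281. The paired F test over days also called Ugdh (adjusted p 0.0112). Its pairs differed by 0.13, 0.22 and 0.14 at day 3 and by -0.03, 0.12 and -0.31 at day 5. Ugp2, which makes UDP-glucose, rose by 0.43 ± 0.10 (adjusted p 0.0387) at day 2, a call lost in 10 of 15 alternatives. In time, Ugdh rose by 2.03 ± 0.22 from day 3 to day 5 in controls (4.09-fold, adjusted p 1.41e-06). Gulo, the last enzyme of ascorbate synthesis, had group means of 4.88 to 5.13 in all 7 groups and was called in none of the comparisons.

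Of 14 listed genes that trap glucose, export lactate or regulate the transporters, 12 were measured. Between day 0 and day 2 controls 2 rose and 2 fell, where 3.44% of all probe sets were called higher and 5.08% lower. The list median was -0.405, against 0.04 over all. From day 0 to day 2 controls Hk2, the inducible hexokinase, fell by 1.17 ± 0.20 (2.24-fold, adjusted p 0.000948). Slc16a1, the lactate transporter MCT1, rose by 0.85 ± 0.20 (adjusted p 0.0121) and Hif1a by 0.64 ± 0.12 (adjusted p 0.00232), while Hk1 fell by 0.71, a call lost in 21 of 28 alternatives. Without day 0 replicate 1 the difference was -1.52 for Hk2, 0.92 for Slc16a1, 0.54 for Hif1a and -1.01 for Hk1, all called. The Slc16a1 call was lost without day 0 replicate 2 (adjusted p 0.0779) or day 2 control replicate 1. Fitted on the 6 arrays alone, Hk2, Slc16a1 and Hif1a all missed the threshold (adjusted p 0.0945, 0.0572 and 0.151). From day 3 to day 5 controls Slc16a1 rose by 1.46 ± 0.20 and Hk2 fell by 0.64 ± 0.20 (adjusted p 0.0343, lost in 6 of 28 alternatives). In that step 2 of the 12 genes were called higher and 1 lower, where 6.76% and 6.45% of all probe sets were. Epas1, which encodes HIF-2α, had the widest course of the list. It read 8.83, 7.73 and 9.75 in day 2 controls, 6.03, 6.65 and 7.23 in day 3 controls and 10.01, 10.36 and 10.44 in day 5 controls, a fall of 2.13 ± 0.52 (adjusted p 0.0259) and a rise of 3.63 ± 0.52 (adjusted p 4.77e-05). Between days 2 and 3 in controls, 1 of the 12 genes was called lower and 0 higher, where 0.497% of all probe sets were called lower. The fall was lost in 4 of 28 alternatives, all leaving out 1 array: day 2 control replicate 1 or 3, or day 3 control replicate 1 or 2. With ascorbic acid at day 2 Epas1 read 9.50, 9.39 and 10.12, higher in 3 of 3 pairs (0.90 ± 0.20, adjusted p 0.0335 with pairs), a call lost in 7 of 15 alternatives, among them leaving out pair 1 or 2 of day 2. At that day the paired fit called 1 of the 12 genes higher, where 1.33% of all probe sets were, and the unpaired fit called 0. At day 3 Epas1 was also higher in 3 of 3 pairs (1.32, 0.14 and 0.72), and 0 of the 12 genes were called at that day in either fit. At day 5 Epas1 was lower in 3 of 3 pairs, by a mean of -0.50 (adjusted p 0.551 with pairs, not called).

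**Figure D4:**
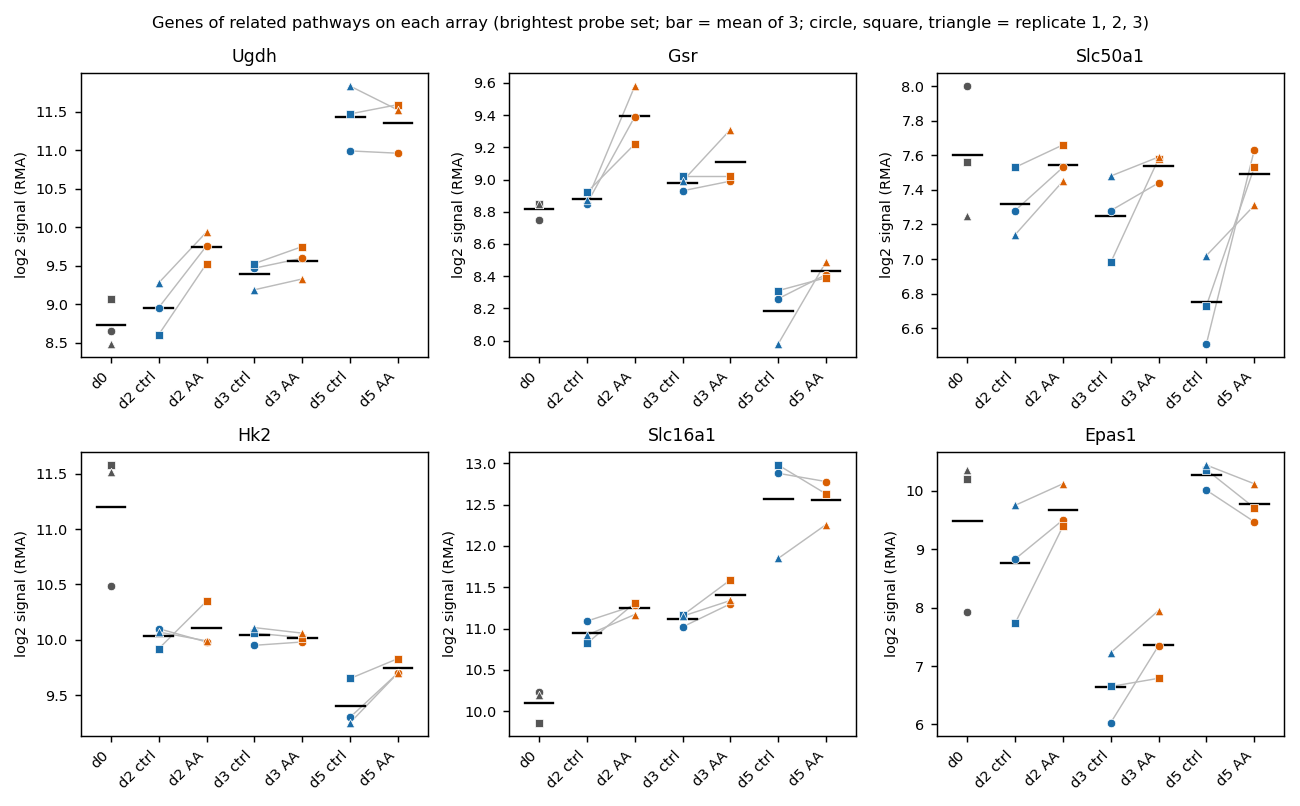
Log2 signal of Ugdh, Gsr, Slc50a1, Hk2, Slc16a1 and Epas1 on each array (y axis, RMA scale, different range in each panel) by group (x axis), with symbols for the replicate, bars for the mean of 3 and grey lines joining same-numbered control and AA arrays. All 3 pairs of Ugdh and Gsr rise with ascorbic acid at day 2, and all 3 pairs of Slc50a1 at each of days 2, 3 and 5.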

How the data were processed

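The series holds 21 Affymetrix arrays in 7 groups of 3, hybridised with biotinylated cRNA from 100 ng total RNA per the labels' protocols. The deposited values are log2 signals that the authors made with RMA, per the submitters' processing notes. RMA corrects background, makes the arrays' distributions equal and summarises probes, so a change shared by all genes cannot be seen. Its version, and any batch, are not given in the sources used here. Arrays have no read depth, and their number limits the precision.

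Of 45101 probe sets, 64 AFFX controls were left out and 45037 were tested. The platform annotation gives 34945 of these 1 gene symbol, 932 several and 9160 none. The 14 member probe sets have 1 symbol each, which a RefSeq table (by Entrez identifier) left unchanged. limma 3.58.1 in R 4.3.3 (lmFit, eBayes with an intensity trend) was fitted to 7 group means, with Benjamini-Hochberg adjustment over all probe sets, and a probe set was called at an adjusted p under 0.05. Whether replicate numbers pair arrays was checked by correlating the deviations of control and AA arrays from their group means. The correlation was 0.16 to 0.61 in 9 of 9 same-numbered pairs of a day, above 0.1 in each, and lowest at day 2 (0.16 to 0.23). Each array correlated best with its own number in 9 of 9. The deviations of the 3 arrays of a group sum to 0, so the pairs of a day are not independent. The fit with these pairs as a block uses the 18 embryoid body arrays. Both were tested on simulated data.

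The 6 genes, the pathway and marker lists and the tests were chosen with earlier results of these data known. List genes, represented by their brightest probe set, were named where called, up to 4 per list and comparison by size of difference, or where a level is given. Listed genes without a matched probe set were not analysed here. Those named only for their level (Slc2a2, Slc2a4, Slc23a3, Gsto2 and Gulo) were chosen after their values were seen. The alternatives were other normalization, centring, filtering, moderation and blocking, fewer arrays in the fit, and leaving out each array or pair.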

Additional observations from a re-analysis of the deposited data

Results flagged for a closer look

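The effect of ascorbic acid differed between days for 1 probe set of the 6 genes and for 1 listed gene, in the limma F test with pairs as a block. For Slc2a3 1437052_s_at the adjusted p was 0.0452, with effects of -0.49 at day 2, 0.00 at day 3 and -0.03 at day 5. As given above, this call was lost in most alternatives to the paired fit, and no other probe set of Slc2a3 was called in this test. For Ugdh the adjusted p was 0.0112, with effects of 0.79 at day 2, 0.16 at day 3 and -0.07 at day 5, and the call was lost without pair 1 of day 2 (adjusted p 0.0766) or pair 1 of day 5. Without pairs neither was called. Groups of 3 arrays are too small for a test of single outlying arrays.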

How the results depend on the processing

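Counts below are of the 6 genes called on their brightest probe set, and no called value reversed its direction under any alternative. With the replicate block of 9 pairs, the count for ascorbic acid went from 0 to 2 at day 2. It went from 0 to 1 for the average and from 0 to 1 for the difference between days, and stayed at 0 at days 3 and 5. That fit also leaves out the day 0 arrays. A block of the replicate number across all days moved 1 count, from 3 to 4 genes for day 3 to day 5 with ascorbic acid. Within pairs, the count of 2 at day 2 was 0 when only the 6 day 2 arrays were fitted and 1 to 2 on leaving out a pair. The count of 1 for the average, and that for the difference between days, were each 0 with array medians subtracted, 0 without the intensity trend and 0 to 2 on leaving out a pair. Alternatives to the paired fit other than the left-out pairs were added after seeing the data.

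For the steps, leaving out 1 array gave 1 to 3 genes for day 0 to day 2 controls (1 with all arrays), 2 to 5 for day 0 to day 2 with ascorbic acid (3), 0 to 1 for day 2 to day 3 with ascorbic acid (1), 3 to 5 for day 3 to day 5 controls (3) and 2 to 4 with ascorbic acid (3). With only the groups compared in the fit, day 3 to day 5 controls gave 5 and day 0 to day 2 with ascorbic acid gave 1. Without the intensity trend, day 2 to day 3 with ascorbic acid gave 0. The cause of these changes was not tested. With 3 arrays a group, the smaller differences here cannot be told from the spread between arrays.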
